A study of Mus musculus with 2 samples.

Results

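The Reg-high squares are the places in 1 section of mouse intestine where transcripts of 4 secreted lectins, Reg1, Reg3a, Reg3b and Reg3g, made up the largest share of the counts. The section carries the label Dpf2 knockout. Counts of its barcodes were summed over squares with a side of 10 position units, and 8285 of 8346 squares held the required 1000 counts or more. The 414 squares in the top 5% by the lectins' share of all counts are the members, and the other 7871 are the remaining squares. They stand among 13202 such squares in the series. The study asked what Dpf2, a subunit of the BAF chromatin remodelling complex, does in intestine injured by radiation. It holds 1 section from a wild-type mouse and 1 from a Dpf2 knockout mouse, both given 10 Gy of X-rays, and no unirradiated section. The tissue is labelled intestine and the cells intestinal cells. No source used here gives the strain, the age, how long after irradiation the gut was taken, its segment, or where in the body Dpf2 was deleted. With 1 section per genotype nothing below is a test of the genotype, and squares of 1 section are not replicates. Intervals are exact at 95% and cover counting error only, unless stated otherwise.

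C-type lectins of the Reg3 family are antibacterial proteins that epithelial cells release into the gut lumen. Reg3g binds the wall of Gram-positive bacteria and helps to keep microbes away from the epithelium, and Reg3b is best known for acting on Gram-negative bacteria. Their transcription in the gut is induced by microbes and by interleukin 22 acting through STAT3. Along the crypt-villus axis, Paneth cells and stem cells sit at the crypt base, dividing cells lie above them, and enterocytes change their gene expression as they climb from the villus bottom to its tip. Lectins of this family are among the genes known from the lower villus.

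Reg3b, Reg3d, Reg3a, Reg2, Reg1 and Reg3g lie next to each other on mouse chromosome 6, between 78370885 and 78468874 on GRCm38, and Reg4 lies apart on chromosome 3. The promoter windows of Reg3b and Reg3g are shown because these genes gave nearly all lectin counts and varied together across the squares. Both windows run from 250 bases before the annotated start of transcription to 50 bases after it, are taken from RefSeq on GRCm38.p6, and are printed 5′ to 3′ on the strand of the gene. Capitals mark TATAAA and TTCNNNGAA, searched on both strands, the latter being the letters of a STAT-type motif.
Reg3b, chr6:78370635-78370934, plus strand: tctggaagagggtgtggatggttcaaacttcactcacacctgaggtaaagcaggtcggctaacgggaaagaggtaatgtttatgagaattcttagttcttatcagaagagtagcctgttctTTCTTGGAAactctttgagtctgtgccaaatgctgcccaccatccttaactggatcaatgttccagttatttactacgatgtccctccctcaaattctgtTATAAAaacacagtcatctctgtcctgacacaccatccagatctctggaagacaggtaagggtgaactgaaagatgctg
Reg3g, chr6:78468825-78469124, minus strand: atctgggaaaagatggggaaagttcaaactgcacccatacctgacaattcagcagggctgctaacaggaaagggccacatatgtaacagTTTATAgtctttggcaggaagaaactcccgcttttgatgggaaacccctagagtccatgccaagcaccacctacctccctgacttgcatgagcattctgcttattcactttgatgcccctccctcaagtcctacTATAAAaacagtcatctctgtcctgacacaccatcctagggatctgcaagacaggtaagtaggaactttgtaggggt
The windows share an unbroken run of 29 bases, from 20 bases before the start in each, which follows the TATAAA. No other pair among the 4 lectins shares a run longer than 14 bases. TATAAA occurs in 3 of the 4 lectin windows, all but that of Reg3a, and in 13.6% of 32544 RefSeq windows of the same length. TTCNNNGAA occurs in the window of Reg3b alone of the 4 and in 8.33% of all windows. These matches are descriptions of letters, and binding was not measured.

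The lectins' share of counts in the members ran from 2.13% to 4.71% with a median of 2.40%, and the members were chosen by these values. The highest square left out stood at 2.1337% and the lowest member at 2.1340%, so the boundary separates no groups of squares. The remaining squares had a median of 1.16% and a lowest value of 0.131%. Members held a median of 13848 counts against 10036 in the remaining squares, both from a median of 11 barcodes, and the part of this difference in any result was not tested. In all, members held 6128354 counts and the remaining squares 83582632.

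Reg3b was the main lectin of the members, with 79.9% of the lectin counts, followed by Reg3g with 18.9%, Reg1 with 1.01% and Reg3a with 0.186%. In CPM (counts per 1000000 counts), Reg3b stood at 20146 (20033 to 20258) in members and 9931 (9910 to 9953) in the remaining squares. Single members ran from 13170.3 to 38926 CPM of Reg3b, with a median of 19308. Reg3g stood at 4771 (4717 to 4826) CPM in members and 2027 (2018 to 2037) CPM in the remaining squares. All 414 members held counts of both genes, as did nearly all remaining squares, 100% for Reg3b and 99.7% for Reg3g. The minor lectins were patchy. Reg1 stood at 255 CPM against 157 CPM and was counted in 77.5% of members. Reg3a stood at 47.0 CPM against 28.0 CPM and was counted in 41.8% of members. Reads could be split between these related genes, and no source used here says how multiply mapping reads were counted.

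Because the rule used all 4 lectins, each was also measured in a set chosen without it. With Reg3g left out of the score, 350 of 414 squares (84.5%) stayed members, and Reg3g was 1.08 (1.07 to 1.10) higher in that set on the log2 scale. With Reg3b left out, 257 squares (62.1%) stayed, and Reg3b was 0.82 (0.82 to 0.83) higher. Reg3a left out of its own choice was 0.72 (0.53 to 0.90) higher, and Reg1 0.60 (0.52 to 0.68) higher. Each lectin was therefore higher where the other 3 were high. Over the 8285 squares, Reg3b and Reg3g shares correlated at r = 0.68, a description of squares that share a library and neighbours. Every pair with Reg1 or Reg3a lay between 0.097 and 0.17, on sparse counts.

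Of the other genes of the family, Reg4 had counts enough to place. Reg4, a lectin of enteroendocrine and goblet-type cells, stood at 75.2 CPM in members and 76.1 CPM in the remaining squares, a log2 ratio of −0.02 (−0.16 to 0.12). Reg2 was counted 4 times in members and 11 times elsewhere, and Reg3d 8 and 48 times, too few to give a level. Dpf2 stood at 28.2 (24.2 to 32.8) CPM in members and 25.8 (24.7 to 26.9) CPM in the remaining squares. Over the whole sections Dpf2 was not lower under the knockout label, at 26.0 CPM (2333 counts) against 23.6 CPM (940 counts) in the section labelled wild type. No source used here names the deleted exons, and reads outside them would not check the label.

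**Figure D1:**
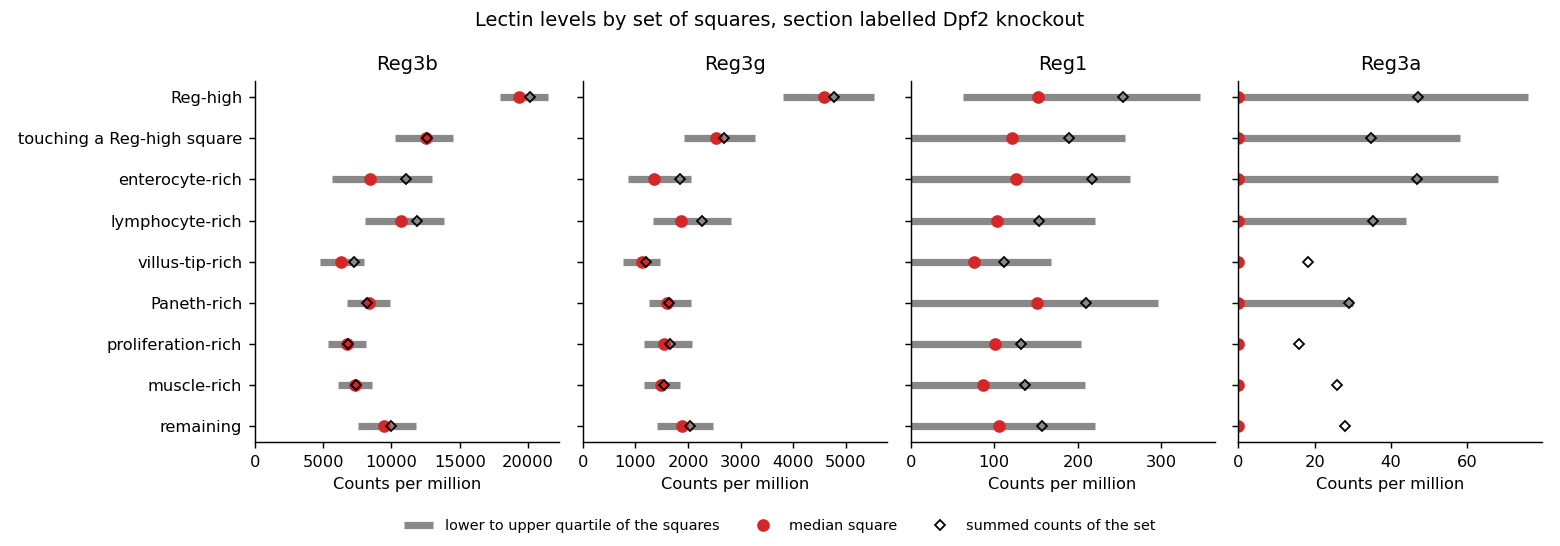
Levels of the 4 lectins in sets of squares of the section labelled Dpf2 knockout, in CPM on linear axes. Circles are median squares, grey bars run from the lower to the upper quartile, and diamonds are summed counts. Reg3b and Reg3g of the Reg-high squares stand to the right of all other sets, while the bars of Reg1 and Reg3a overlap.

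Lectin transcripts were present across the whole section. Sets of 414 squares, each the top 5% by the share of a marker list, served as landmarks. The 4 lectins together reached 25219 CPM in Reg-high squares, 13206 CPM in enterocyte-rich squares and 14312 CPM in lymphocyte-rich squares. They stood at 10129 CPM in Paneth-rich squares, 8557 CPM in villus-tip-rich squares and 9099 CPM in muscle-rich squares. The remaining squares stood at 12143 CPM, with a median square of 11603 CPM. The enterocyte-rich and lymphocyte-rich sets include 41 and 33 of the Reg-high squares. The median enterocyte-rich square, at 10055 CPM, lay below the median remaining square, and the median lymphocyte-rich square, at 12843 CPM, lay above it. The muscle-rich squares also held epithelial transcripts, with 7450.4 CPM of the pan-epithelial list. Whether transcripts spread between barcodes was not tested.

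The members lay in arcs rather than singly. Of the 414 squares, 351 (84.8%) touched another member at a side or corner, and 31.9% of the squares around a member were members, against 3.68% around a remaining square. They formed 131 connected groups, of which 63 were single squares and the largest held 38. On the map the section looks like a coil, and lectin signal follows its turns. Squares touching a member averaged 15532 CPM of the lectins, the next ring 12479 CPM, and the ring after that 11099 CPM.

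**Figure D2:**
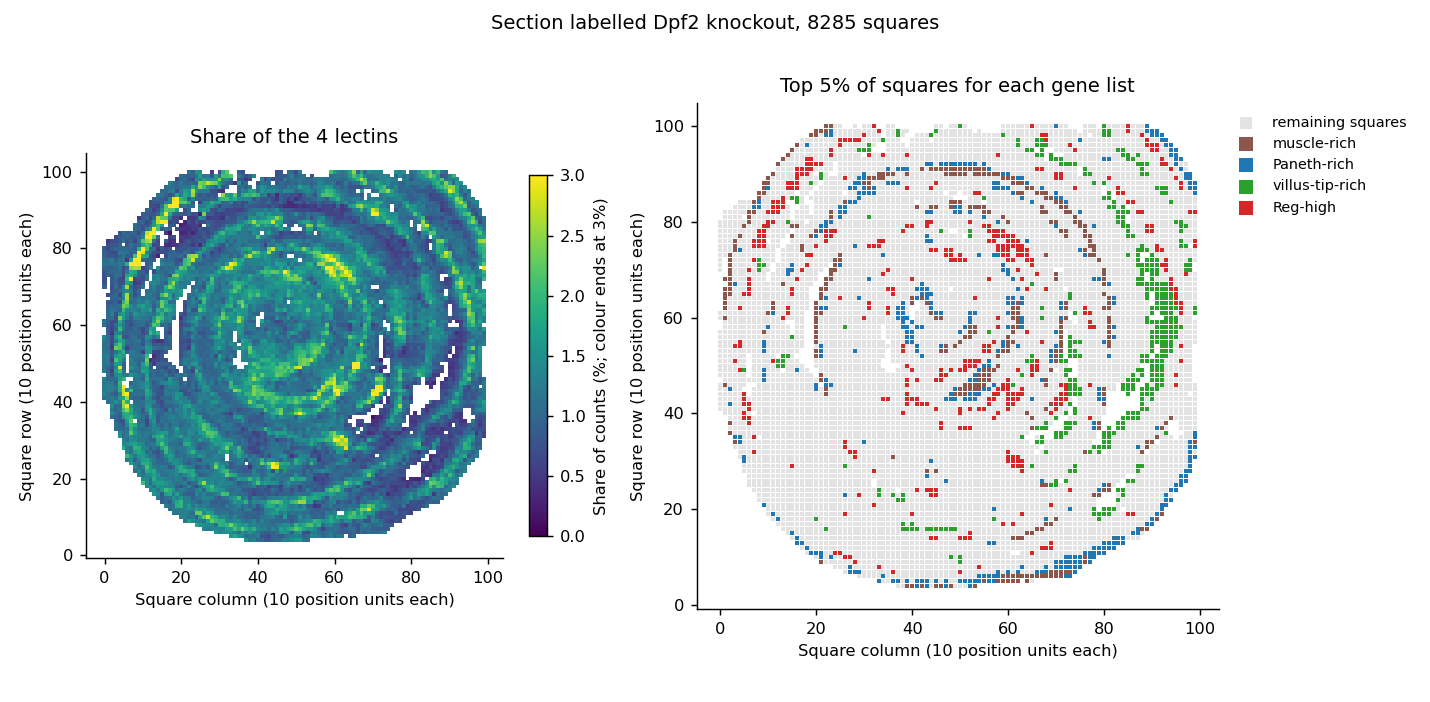
The 8285 squares of the section labelled Dpf2 knockout, by column and row of squares. The left panel colours each square by the lectins' share of its counts and the right panel marks the top 5% of squares for the lectins and for 3 marker lists. Reg-high squares form short arcs along the coil and share no square with the 3 other sets.

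The Reg-high squares shared 0 of 414 squares with the Paneth-rich, the villus-tip-rich, the proliferation-rich and the muscle-rich sets. With enterocyte-rich squares they shared 41 (9.90%), and with lymphocyte-rich squares 33 (7.97%). Shares compete within a square, so a square rich in 1 list has less room for another. The median member lay 3.61 squares from the nearest Paneth-rich square, 4.47 from the nearest muscle-rich square and 4.12 from the nearest villus-tip-rich square. The remaining squares lay at medians of 3.61, 4.24 and 5, so the medians alone set members little apart. Within 2 squares of muscle lay 1.69% of members and 23.4% of the remaining squares. The same shares were 13.04% and 27.4% for Paneth-rich squares, 15.7% and 19.3% for villus-tip-rich squares and 28.7% and 33.4% for proliferation-rich squares. At that range the gaps to the villus-tip-rich and proliferation-rich sets were thus small. Closer in, 8.70% of members and 15.3% of the remaining squares lay in or touched villus-tip-rich squares. For proliferation-rich squares these shares were 15.9% and 26.0%. The remaining squares include all squares of both sets. Paneth-rich squares lay at a median of 1 square from muscle, and villus-tip-rich squares at 7.81.

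Over all squares, binned by distance from muscle, the lectins rose from 9099 CPM at muscle-rich squares to 15340 CPM at 4 squares away and lay between 12808 and 14136 CPM from 5 squares outward. Members were 0.594% of squares at distance 1, 11.1% at distance 4 and 4.10% at distance 6. The Paneth list was highest at distance 1, with 14827 CPM, and the proliferation list at distances 1 and 2. The villus-tip list climbed from 3769 CPM at distance 0 to 9951 CPM at distance 4 and 13461 CPM at distance 6. Counted from Paneth-rich squares, the lectins were highest at distance 3, with 14726 CPM. The highest levels thus came nearest to muscle for Paneth and proliferation genes, then for lectins, and farther out for villus-tip genes. The coil places neighbouring turns beside each other, so larger distances mix turns.

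**Figure D3:**
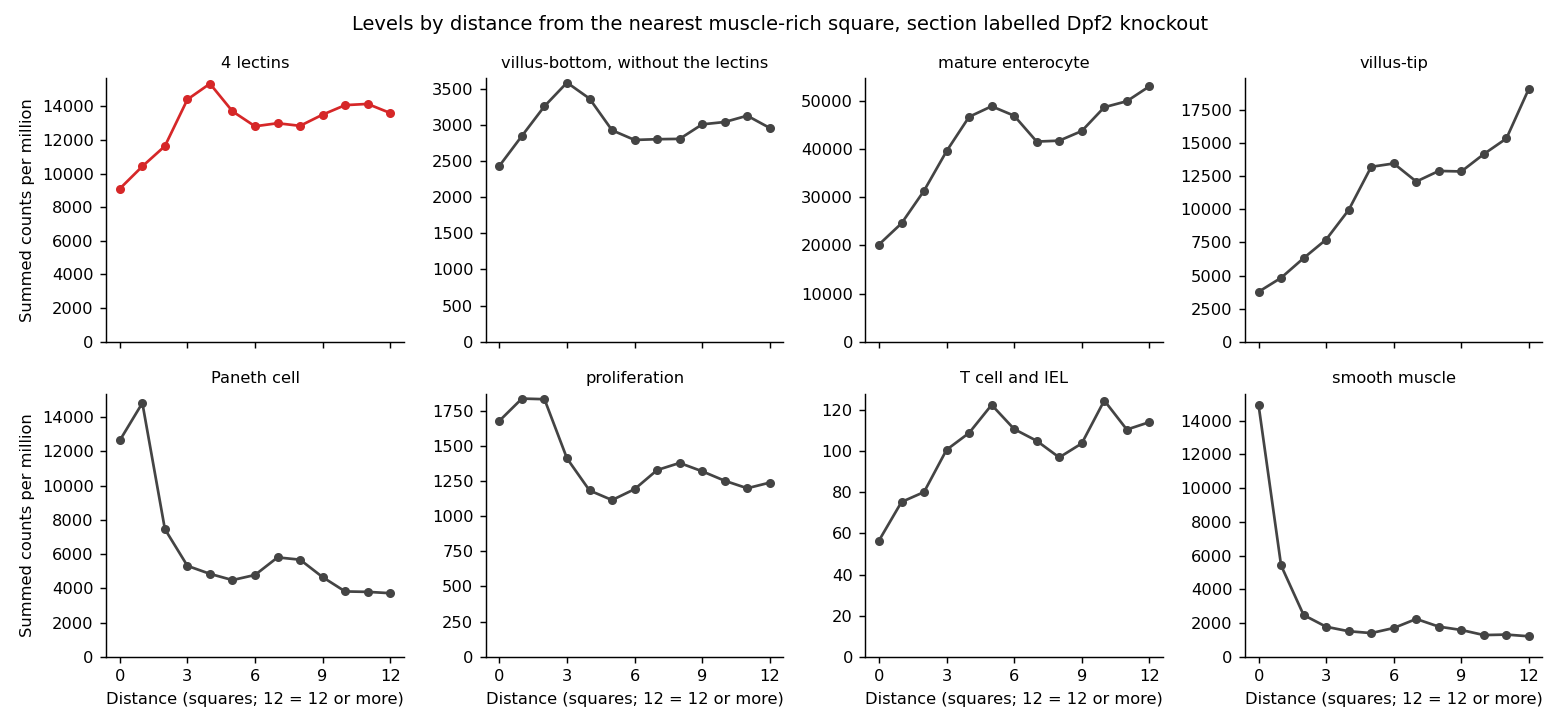
Summed CPM of 8 gene lists against the distance from the nearest muscle-rich square, in squares, over the section labelled Dpf2 knockout. All axes start at 0, and the last point holds all squares 12 or more away. The lectin curve peaks at distance 4, beyond the Paneth and proliferation peaks, while the villus-tip curve climbs from distance 0 to distance 6.

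Members were compared with the remaining squares over 13148 genes with 200 or more counts, leaving out the lectins. At least 2-fold higher were 7 genes, or 0.0532%, and at least 2-fold lower were 1290, or 9.81%. At a fold of 1.5, a limit added after the data were seen, 168 genes (1.28%) lay above it and 2731 (20.8%) below its inverse. Over all genes the median log2 ratio was −0.16, and 33.1% of genes lay above 0. Gene lists below take members with 20 or more counts, a lower minimum than the 200 behind these shares. The small count of 2-fold higher genes ranged from 3 to 66 over the settings tried, with 3 when part 2 of the section was left out. A second comparison used only the 3843 remaining squares in which the share of pan-epithelial genes was at or above the section's median, called epithelial below. There 1.5-fold or larger differences were 152 upward (1.16%) and 1249 downward (9.5%), with a median of −0.09 over all genes. Of the members, 300 (72.5%) met the same limit. In squares that hold many cells, fewer cells of a type and less RNA per cell cannot be told apart.

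Several of the highest genes of the members encode enzymes. Gsta1, a glutathione transferase, stood at 410 CPM in members and 203 CPM in the remaining squares, a log2 ratio of 1.01 (0.95 to 1.07). In the 4 parts of the section its ratio was 0.95, 1.48, 0.25 and 0.91. The related Gsta4 stood at 0.95 (0.82 to 1.08) and Gstm3 at 0.85 (0.66 to 1.04). Near-identical glutathione transferases may share reads. Papss2, which makes the sulphate donor of sulphotransferases, stood at 693 CPM against 378 CPM, a ratio of 0.87 (0.83 to 0.92), and the sulphotransferase Sult6b2 at 0.88 (0.80 to 0.97). The glucuronosyltransferase Ugt1a5 reached 1.01 (0.71 to 1.29) on 115 counts in members, and the aldose reductase relative Akr1b7 1.05 (0.83 to 1.27) on 194.

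Other genes among the 20 highest with the same sign in all 4 parts had other roles. Prss27, a serine protease, led them at 1.18 (0.57 to 1.74), on only 30 counts in members. Slc40a1, the iron exporter ferroportin, stood at 0.98 (0.56 to 1.38) on 59 counts. Ggh, which trims folate side chains, stood at 144 CPM against 75.6 CPM, or 0.93 (0.82 to 1.03). Fbp1, an enzyme of glucose synthesis, stood at 0.89 (0.50 to 1.26) on 67 counts, and the signalling phospholipase Plcg2 at 0.88 (0.58 to 1.18) on 107. The cytokine Il33, an alarm signal of barrier cells, was the most even of those described, at 0.83 (0.64 to 1.02) with parts from 0.75 to 0.92. Sytl3, Tstd1, Angptl8 and Thnsl2 stood between 0.85 and 0.97 in members. Ubd and Adh4 had ratios of 1.27 and 1.01, but in 1 part of the section each lay below 0, at −0.20 and −0.11. Those 2 genes were chosen after their values were seen.

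Against epithelial squares alone, most of these ratios held their size. Gsta1 stood at 1.09, Papss2 at 0.88, Il18 at 0.83, Il33 at 0.80 and Slc40a1 at 1.07. Ggh was smaller there, at 0.57. Rdh7, a retinol dehydrogenase relative, stood higher against epithelial squares (1.08) than against all remaining squares (0.77). The sugar transporter family member Slc5a4a stood at 0.92 and the proton channel Otop3 at 1.04 in that comparison.

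**Figure D4:**
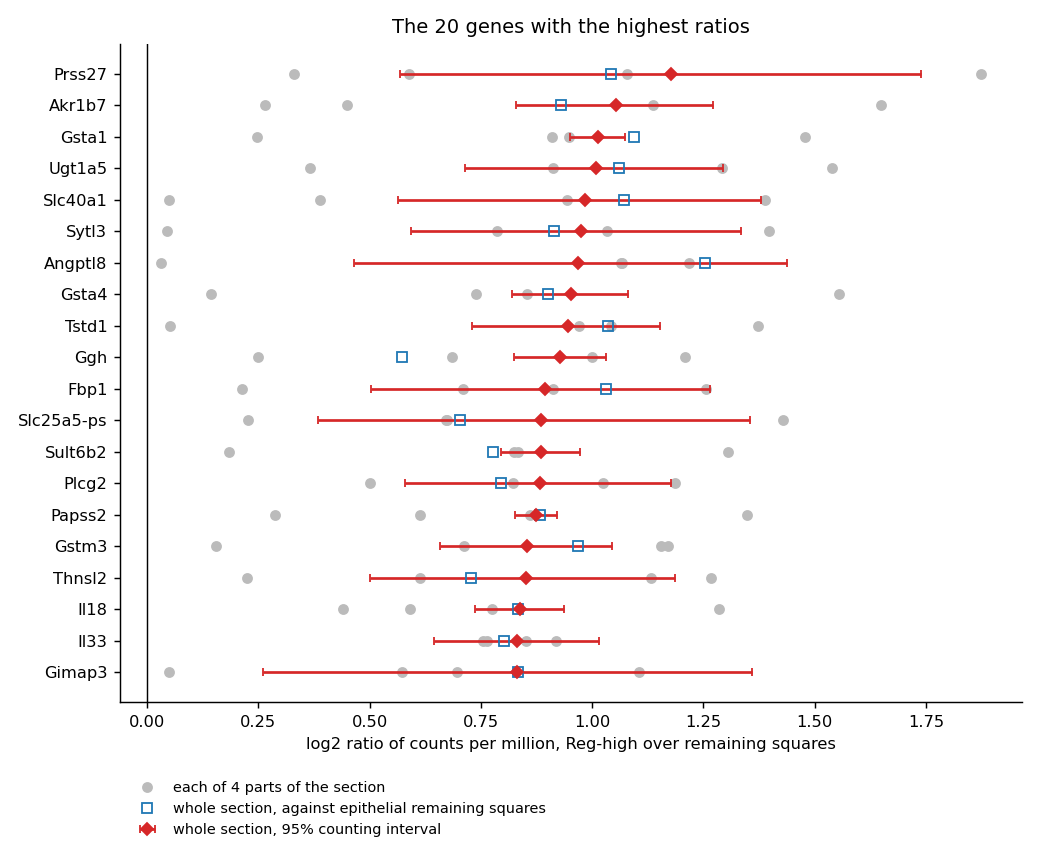
Log2 ratios of Reg-high over remaining squares for the 20 genes with the highest ratios among those with the same sign in 4 parts of the section. Diamonds with bars are the whole section with its 95% counting interval, grey circles the parts, and open squares the comparison with epithelial remaining squares. The parts spread more widely than the counting intervals for most of these genes, and most narrowly for Il33.

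Of the 12 genes other than the lectins listed here for the villus bottom, 7 lay above 0 and 5 below, with a median of 0.44. Over all genes 33.1% lay above 0 and the median was −0.16. The list's summed level was 4126 CPM in members and 3019 CPM elsewhere. Il18, a cytokine that inflammasomes release, stood at 153 CPM against 85.5 CPM, a ratio of 0.84 (0.74 to 0.94). Ccl25, the chemokine that draws lymphocytes to the small intestine, stood at 556 CPM against 375 CPM, or 0.57 (0.52 to 0.62). Lypd8, which keeps flagellated bacteria off the epithelium, stood at 1325 CPM against 924 CPM, or 0.52. Ckmt1, the mitochondrial creatine kinase, stood at 0.56, Arg2 at 0.51 and the inflammasome sensor Nlrp6 at 0.37. On the other side were Cps1, an enzyme of the urea cycle, at −0.37, Gsdmc3 at −1.26 on 5 counts, Gsdmc4 at −0.16 and Gsdmc2 at −0.20. Plb1 held 0 counts in members and 78 elsewhere. Only 2 of the 12 (Gstm3 and Il18) were at least 1.5-fold higher, beside 1.28% of all genes. Single genes of the zone therefore went both ways, while the list's summed level was higher in members. The interval of the list's median over its 12 genes, −0.37 to 0.57, included 0 and the −0.16 of all genes. Against epithelial squares the median was 0.45, with an interval of −0.16 to 0.63 that also included 0. Both intervals reflect the spread of the list's genes rather than counting error. The median therefore does not by itself set the list apart. The name Reg-high is kept here for what the rule measures.

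Of the villus-tip genes 4 of 12 lay above 0, a share like the 33.1% of all genes, with a median of −0.31 beside −0.16. The enzymes and transporter of adenosine handling were the lowest. Ada stood at 781 CPM in members and 1422 CPM elsewhere, a ratio of −0.86 (−0.91 to −0.82). Slc28a2 stood at −0.89 (−0.98 to −0.81) and Nt5e at −1.28 (−1.64 to −0.94). In villus-tip-rich squares Ada reached 7427 CPM. Egfr stood at −0.58 and Enpp3 at −0.39, while Krt20 lay at 0.13. Apoa4, the most abundant villus-tip gene, stood at 6191 CPM in members and 6020 CPM elsewhere. Against epithelial squares the median of the list was −0.50, with Ada at −1.40, Slc28a2 at −1.54 and Apoa4 at −0.44.

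Enterocyte genes were higher in members as a broad group of modest size. The mature enterocyte list had a median of 0.44, with 19 of 21 measured genes above 0 and 5 at least 1.5-fold higher, beside 33.1% and 1.28% of all genes. Per square, the list's summed level ran from 23750 to 90491 CPM in members, with a median of 50647, and from 4981 to 110924 CPM elsewhere, with a median of 34377, so the ranges overlap. The retinol-binding protein Rbp2 stood at 2437 CPM against 1382 CPM, or 0.82 (0.79 to 0.84). Fabp1, a fatty acid carrier, stood at 8396 CPM against 4879 CPM, or 0.78 (0.77 to 0.80), and Fabp2 at 0.62. Sis, the sucrase-isomaltase of the brush border, stood at 2051 CPM against 1171 CPM, or 0.81 (0.78 to 0.84). All 15 villus-middle genes lay above 0, with a median of 0.39, against 33.1% of all genes. Of 20 genes for digesting and taking up sugars and peptides, 19 lay above 0, among them Mgam at 0.71, Slc2a2 at 0.62 and Slc5a1 at 0.46.

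Within the enterocyte programme the gain was uneven. Lct, the lactase, stood at 0.15, Apoa1 at 0.35 and Apoa4 at 0.04. Of 20 genes of lipid absorption, 16 lay above 0, beside 33.1% of all genes, with a median of 0.21. Fabp1 was the highest at 0.78, Mttp stood at 0.44 and Apoc3 at −0.19, and the lowest member stood at −0.58. Of 21 xenobiotic enzymes, 18 lay above 0 and 3 were at least 1.5-fold higher, beside 33.1% and 1.28% of all genes. Their median was 0.33, and Cyp3a11 stood at −0.24. Among 24 measured genes for oxidative phosphorylation, 23 lay above 0, with a median of 0.22. Ribosomal protein genes went the other way, 0 of 25 above 0 with a median of −0.40. Both of these counts stand beside 33.1% of all genes above 0. Against epithelial squares the medians were 0.21 for mature enterocytes, 0.04 for lipid absorption, 0.35 for xenobiotic enzymes and 0.28 for oxidative phosphorylation. The pan-epithelial list stood at 0.16 against all remaining squares and at −0.07 against epithelial ones, beside a smooth muscle list at −1.86 and −0.53. The epithelial squares were chosen by the pan-epithelial list, so its value of −0.07 follows in part from that choice. The part of tissue makeup in these values was not tested.

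Crypt genes were lower in members. All 17 Paneth genes lay below 0, 10 of them at least 2-fold, beside 9.81% of all genes, and the median was −1.06. Defa24, an alpha-defensin, stood at 1413 CPM against 2818 CPM, or −0.996 (−1.03 to −0.97), and the lysozyme Lyz1 at 220 CPM against 446 CPM, or −1.02. Alpha-defensins are near-identical copies and may share reads. Against epithelial squares the Paneth median was −0.39. The stem cell list had a median of −0.70, with Olfm4 at −1.38 (−1.48 to −1.27) and Smoc2 at −1.73 (−1.97 to −1.49). All 30 proliferation genes lay below 0, with a median of −0.75, and 28 were at least 1.5-fold lower, beside 20.8% of all genes. Mcm4, part of the replication helicase, stood at −1.28 and Hmgb2 at −0.73.

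**Figure D5:**
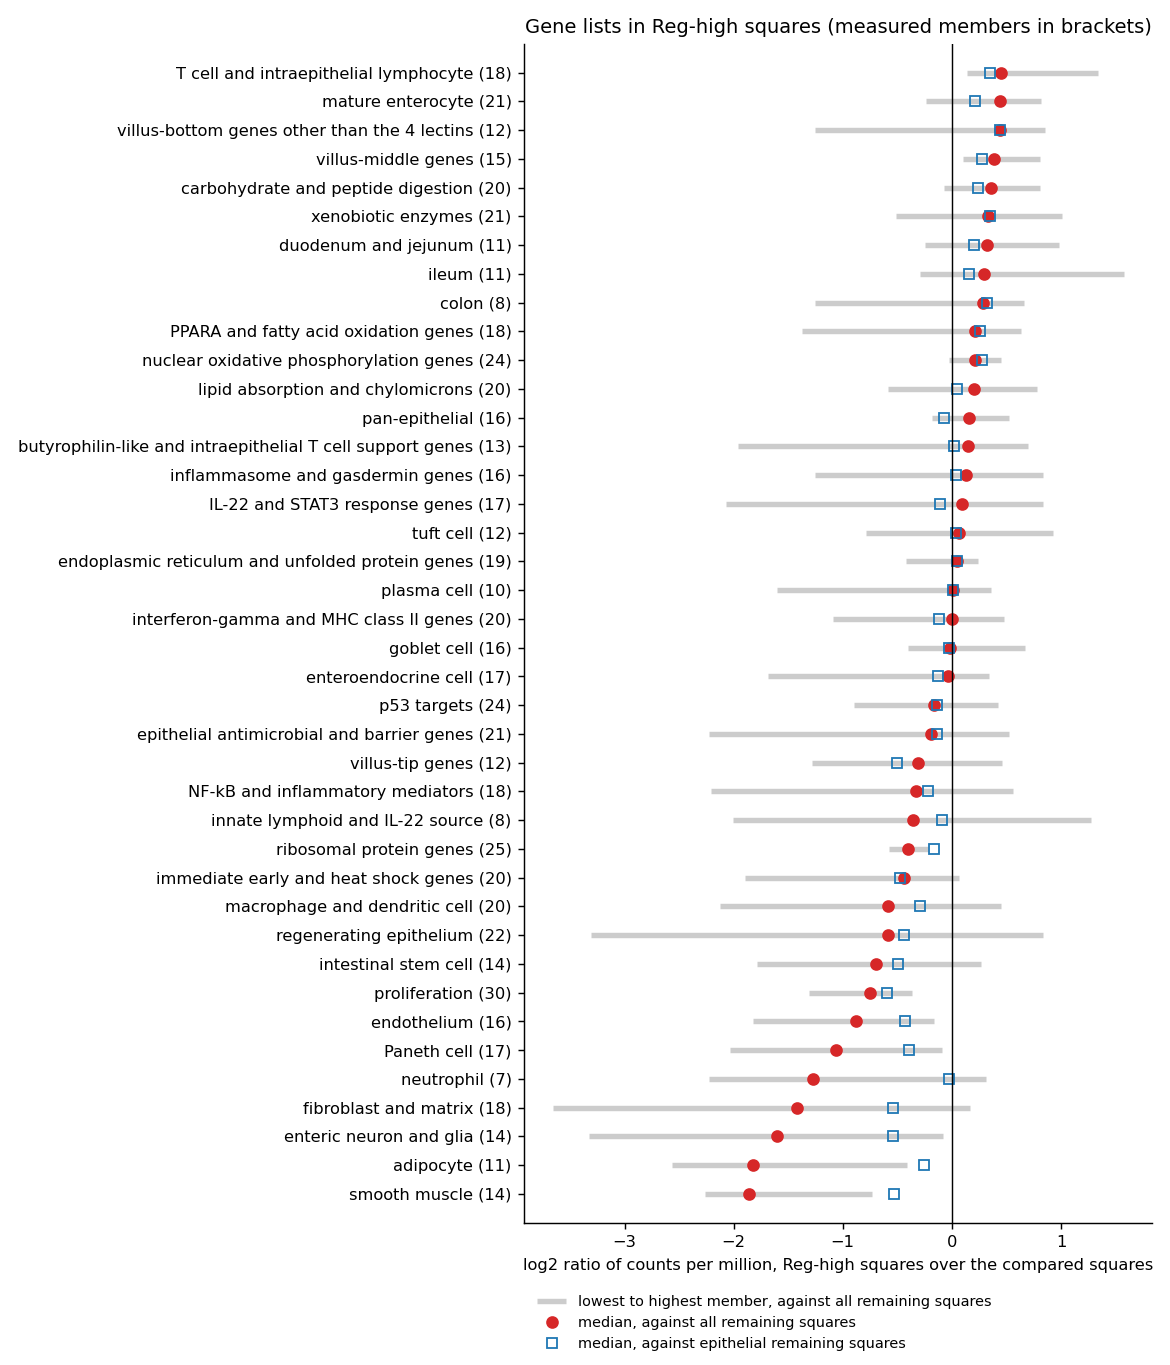
Median log2 ratios of gene lists in Reg-high squares, with the number of measured members in brackets. Circles are medians against all remaining squares, open squares are medians against epithelial remaining squares, and grey bars run from the lowest to the highest member of the list in the first comparison. Enterocyte and lymphocyte lists lie to the right of 0 and muscle, fibroblast and Paneth lists to the left.

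Lymphocyte transcripts were few but leaned one way. All 18 measured genes of T cells and intraepithelial lymphocytes lay above 0, beside 33.1% of all genes. Their median was 0.45, and 6 were at least 1.5-fold higher, beside 1.28% of all genes. The list takes genes with 20 or more counts, and the shares of all genes only those with 200 or more. The list's summed level was 133 CPM in members and 99.7 CPM elsewhere. Ccl5, a chemokine of cytotoxic cells, stood at 0.64 (0.35 to 0.92) on 115 counts in members, Cd8a at 0.72 (0.18 to 1.21) on 37 and Trdc, the constant region of the delta chain, at 0.91 (0.11 to 1.62) on 18. Gzma stood at 0.36 and Cd3g at 0.14. Against epithelial squares the median was 0.35, 1 gene was at least 1.5-fold higher, and Cd3g stood at −0.06. The log2 ratio of the summed level was 0.42 in the first comparison and 0.18 in the second. Of 13 butyrophilin-like and other genes that support such lymphocytes, 10 lay above 0, beside 33.1% of all genes. Their median was 0.15, with Btnl1 at 0.61 and Btnl2 at 0.54. Plasma cell genes stood at a median of 0.01, and Igha was 1162 CPM in members and 1150 CPM elsewhere.

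Genes known to act upstream of the lectins, or beside them, went both ways. Of 17 genes of the interleukin 22 and STAT3 response, 9 lay above 0 and 8 below, beside 33.1% of all genes above 0. The list's median was 0.09 against all remaining squares and −0.11 against epithelial ones, beside −0.16 and −0.09 for all genes. Its summed level was 890 CPM in members, 777 CPM in all remaining squares and 853 CPM in epithelial ones. Stat3 itself stood at −0.10, Socs3 at 0.11, Saa1 at 0.09 and Lcn2 at −0.06. Osmr, a receptor chain for oncostatin M, stood at −2.07 on 11 counts, and Il22 held 0 counts in members and 1 elsewhere. Of 16 inflammasome and gasdermin genes, 12 lay above 0, beside 33.1% of all genes, with a median of 0.13. They were led by Il18 and by Casp1 at 0.73 (0.52 to 0.94), while the adaptor Pycard lay at −0.15. Of other antimicrobial and barrier genes 8 of 21 lay above 0, near the share of all genes, with Pigr at 0.35, Sprr2a1 at 0.24 and Itln1 at −0.43. In this list 4 genes were at least 2-fold lower, beside 9.81% of all genes, and 0 were at least 1.5-fold higher. The lowest, at −2.23, is also on a list of neutrophil genes, whose summed level was only 18.6 CPM in members and 22.1 CPM elsewhere. The list's summed level was 12499 CPM in members and 11414 CPM elsewhere.

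The list medians of other epithelial lineages lay close to 0. The goblet list stood at −0.01, with Guca2a at 0.67, Tff3 at 0.27 and Muc2 at 0.20. Enteroendocrine genes had a median of −0.03, with Chga at 0.34 and Ghrl at −0.68 (0.19 with Reg3b left out of the score), and tuft cell genes 0.07. The summed enteroendocrine level was lower in members, at 396 against 527 CPM, with 4 of 17 below the inverse of a 2-fold difference, beside 9.81% of all genes. Genes of regenerating epithelium, known from repair after injury, had a median of −0.59, with 4 of 22 above 0, beside 33.1% of all genes. Their summed level was 1764 CPM in members and 1693 CPM elsewhere, the other direction. Among these genes were Il33 and Areg (0.44) above 0, and Clu at −0.72 and Anxa8 at −3.31 on 1 count below it.

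Genes of the gut wall were the lowest. The 14 smooth muscle genes had a median of −1.86, with Acta2 at 122 CPM in members and 459 CPM elsewhere and Myh11 at −2.23. Fibroblast genes stood at −1.42, with Dcn at −2.17, although Fbln1 of the same list lay at 0.17 on 1977 counts. Genes of enteric neurons and glia stood at −1.60, with Vip at −1.96, endothelium at −0.88 and adipocytes at −1.82. Macrophage and dendritic cell genes had a median of −0.59, with Apoe at −1.09, C1qb at −0.99 and Lyz2 at −1.59. The lowest ratios with the same sign in all 4 parts were those of Boc, at 1 count in members and 345 elsewhere, Smad9 (1 and 211), Pf4 (4 and 482), Dusp26 (4 and 463) and Gpr20 (8 and 945). Against epithelial squares the fibroblast, muscle and neuron medians lay between −0.54 and −0.53.

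Members also differed among themselves by position. Split into 3 zones of equal size by distance from the section's centre, 195 members lay in the inner zone, 60 in the middle and 159 in the outer zone. Their summed lectin levels, which the choice of members holds close, were 25503, 24203 and 25255 CPM. Reg1 stood at 85.2, 201 and 445 CPM in members from the inner to the outer zone and at 75.2, 133 and 247 CPM in the remaining squares, so its gradient ran through the whole section. Reg3b lay between 19404 and 20609 CPM in members. Fabp1 stood at 5247, 9371 and 11310 CPM in members of the 3 zones, and at 3757, 4594 and 6080 CPM in the remaining squares. Gsta1 stood at 151, 445 and 663 CPM in members and at 115, 187 and 291 CPM elsewhere. Enterocyte genes were higher in members than in the remaining squares of each zone, at 45488 against 35813, 57154 against 39328 and 60931 against 44024 CPM. The zones are positions in 1 section, and no source used here says which segment of gut each holds.

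The same rule was applied to the section labelled wild type, which had no part in choosing the members. Its 245 top squares reached a median lectin share of only 0.576%, and 1 of 4917 squares passed the limit of the section labelled knockout. In those squares Reg3b gave 56.5% and Reg3g 43.3% of the lectin counts. Over that whole section the order was the other way, with 65.4% for Reg3g and 34.4% for Reg3b. Reg1 gave 84 counts there and Reg3a 48. Its mature enterocyte genes stood at 448 CPM outside the top squares, and its Paneth genes at 119368 CPM, so the surrounding tissue differed from that of the section labelled knockout, where they stood at 39960.2 and 7168 CPM. The wild-type top squares shared 111 of 245 squares (45.3%) with the enterocyte-rich set and 69 (28.2%) with the villus-tip-rich set of their section. Most lay together, 177 of them in 1 connected group.

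Against their own remaining squares, the wild-type top squares had a median of 3.11 for mature enterocytes and 1.37 for villus-tip genes. In the members of the section labelled knockout the same medians were 0.44 and −0.31. The wild-type values rest on part 4 of that section, which held 193 of the 245 squares. There the mature enterocyte list summed to 4274 CPM in top squares and 744 CPM elsewhere, while in parts 1 to 3 it was lower in top squares, at 88.2 against 343, 290 against 418 and 174 against 324 CPM. The villus-tip list was likewise higher in part 4, at 1999.7 against 671 CPM, and lower in top squares of the other 3 parts. Parts 1 to 3 held only 6, 17 and 29 top squares, so their levels rest on few squares. Counted over 11655 genes of that section, 336 (2.88%) stood 1.5-fold or more above and 1306 (11.2%) as far below. Of 11232 genes measured in both sections, 55 were at least 1.5-fold higher in members of the section labelled knockout and 331 in the wild-type top squares. The sections shared 20 of these, 36.4% of the first list and 6.04% of the second. Among the 20 were Il18, Casp1, Gsta1, Papss2, Sis, Fabp1, Fabp2, Rbp2 and Mgam. Gsta1 alone was at least 2-fold higher in both. The difference between the sections was not tested, because each genotype has 1 section.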

How the data were processed

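Spatial transcriptomes of 2 sections of irradiated mouse intestine, 10 µm thick, were sequenced as paired reads of 150 bases. The authors deposited counts, whole numbers for each gene in each barcode. Per the labels' protocols, spots covered by tissue were extracted with BSTMatrix and BSTViewer, and the build is GRCm38 per the submitters' processing notes. No source used here names the aligner or the counter, or says whether molecular identifiers were collapsed. Molecules may therefore be counted more than once, and intervals of levels and ratios cover counting error only. The 2375 symbols on X or Y and 37 mitochondrial symbols hold 0 counts in both sections. The sections share 45557 barcode names, which are positions on the array. The section labelled wild type held 39824941 counts and the section labelled knockout 89754886.

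Barcodes were summed over squares, and genes over all squares of a set, then scaled to CPM. CPM carry exact Poisson intervals and ratios exact conditional binomial (Clopper-Pearson) intervals. A side at 0 counts was set to 3 counts over the set, and no ratio was taken where that left no direction. List medians use genes with 20 or more counts. The 4 parts of the section are split by the medians of column and row. Python 3.11.15, numpy 2.4.6, scipy 1.17.1 and pandas 2.3.3 were used, and ratios were tested on simulated data. No test across samples was possible with 1 section per genotype.

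Members and lists were chosen with earlier results of these data known. Named genes are the Reg family, Dpf2, the 20 highest and 15 lowest ratios with the same sign in 4 parts (200 or more counts, leaving out predicted, ribosomal protein, variable immune receptor and haemoglobin genes), the 15 highest against epithelial squares, and of each list up to 5 members with the largest ratios (50 or more counts) and the 2 most abundant. Further genes of the lists were chosen after their values were seen, as was the 1.5-fold limit. Alternatives covered the squares, the limit, the score, the compared squares, the scaling and parts of the section.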

Additional observations from a re-analysis of the deposited data

Results flagged for a closer look

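Among the genes named in the text, 5 had a contrast of Reg-high against remaining squares that ran opposite ways in the 2 sections, by 1.5-fold or more in each. Over all 11232 genes measured in both sections, 4 that were higher and 17 that were lower in the section labelled knockout did so. With 1 section per genotype this difference was not tested. Ada, the adenosine deaminase of villus-tip enterocytes, had a log2 ratio of −0.86 in the section labelled knockout and 1.998 in the section labelled wild type. The nucleoside transporter Slc28a2 stood at −0.89 and 3.05, and Nt5e, which makes adenosine at the cell surface, at −1.28 and 0.89. Olfm4, a gene of crypt base cells, stood at −1.38 and 0.90. Ggh, the folate-trimming enzyme, went the other way, at 0.93 and −0.98. Of the 245 wild-type top squares, 193 lay in part 4 of their section. There Ada stood at 1.55, against −0.39, −2.94 and −0.10 in parts 1 to 3, so its wild-type value rests on that part. Parts 1 to 3 held only 6, 17 and 29 top squares, so ratios there rest on few squares and are given without intervals. Olfm4 stood at −0.84 in part 3 and Nt5e at −0.24, below 0 as in the section labelled knockout. The wild-type top squares shared 28.2% of their number with the villus-tip-rich squares of their section and 17.6% with its Paneth-rich squares, where the members of the section labelled knockout shared 0. The part of this overlap and of position in the 5 ratios was not tested.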

How the results depend on the processing

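Settings changed the square size, the grid, the count minimums, the limit of 5%, the score, the compared squares, the scaling and the parts of the section. The 12 list medians that were 1.5-fold or more from 0 kept their sign in all 240 values, while over all 43 list medians, small ones included, 809 of 859 did. Of 68 genes named in the text with such ratios, 1358 of 1359 values kept the sign, and Ghrl turned to 0.19 with Reg3b left out of the score. Many of these genes were named for large ratios with the same sign in 4 parts of this section. Keeping the sign therefore follows in part from that choice. The count of genes at least 2-fold higher, 7 as reported, was 4 at a side of 20 units, 11 on a shifted grid, 19 in the top 2.5% and 3 in the top 10%. It was 28 with median of ratios scaling, 16 against epithelial squares, 18 against squares that touch no member and 27 with Reg3b left out of the score. With gene minimums of 50 and 1000 counts it was 66 and 3. The count of lower genes, 1290 as reported, was 303 against epithelial squares, and 2293 and 369 with those minimums. Without each part of the section in turn, the first count ran from 3 (part 2) to 13 (part 3) and the count shared by both sections from 0 (parts 2 and 4) to 1. That shared count, 1 as reported, was 0 at a side of 20 units, in the top 10%, with the mean of single squares, with Reg1, Reg3b or Reg3g left out of the score and with a minimum of 1000, 2 with a minimum of 50, and 4 with median of ratios scaling. The proliferation median was −0.62 at a side of 20 units, −0.58 with median of ratios scaling, −0.59 against epithelial squares and −0.54 without Reg3b in the score. The Paneth median was −0.39 against epithelial squares. With median of ratios scaling, which raised every ratio by 0.16, the villus-bottom and mature enterocyte medians were both 0.60, and without Reg3b in the score the villus-bottom median was 0.64. Members touching another were 88.8% at a side of 5 units, 74.3% at 20, 78.3% in the top 2.5% and 90.9% in the top 10%. The cause of these shifts was not tested. No paired analysis was possible because each genotype has 1 section. Genes with few counts are limited by depth, and all values by the single section.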

Other observations

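Against epithelial squares, the ratios of the lectins themselves were 0.95 for Reg3b, 1.16 for Reg3g, 0.85 for Reg1 and 0.82 for Reg3a. These ratios use the values that chose the members. Most genes of immediate early and heat shock responses lay lower in members than elsewhere in both comparisons. Their medians were −0.44 against all remaining squares and −0.48 against epithelial ones. The summed level differed less, at 1895 CPM in members, 2035 CPM in all remaining squares and 2224 CPM in epithelial ones. Its log2 ratios were −0.10 and −0.23, beside medians of −0.16 and −0.09 for all genes. In the first comparison 2 of 20 lay above 0, beside 33.1% of all genes. Genes of p53 targets, which respond to DNA damage, had medians of −0.16 and −0.14, close to the −0.16 and −0.09 of all genes. Genes of fatty acid oxidation stood at 0.22 and 0.26, led by Ehhadh at 0.64 against all remaining squares. That gene was chosen after its values were seen. Genes of interferon-gamma response and antigen presentation had medians of 0.00 and −0.12.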
